A study of Mus musculus with 39 samples.

Results

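RNA pulled down from mouse hindlimb muscle after a 6 h label was compared with RNA pulled down after a 1 d label, gene by gene. The comparison used 8 of the 39 libraries of the study, 4 labelled for 6 h (the samples titled TU_6h in vivo) and 4 labelled for 1 d (TU_1d), taken by these titles. Per the labels, both groups were Pax7CreER/+: UPRTHA/+ mice that received 4-thiouracil (4tU), either once 6 h before harvest or every 12 h for 1 d. Labelled RNA was then pulled down from the total RNA of the hindlimb muscle, and its polyadenylated part was sequenced. The labels give no age, sex, time of day or feeding state, and do not say whether replicates were separate animals, so a p-value here rests on the spread among these libraries, which may be technical. The same alleles were carried by the animals behind the 4 d label (4 libraries, 4tU every 12 h for 4 d) and are stated for the whole labelling experiment, of which the total RNA of whole muscle (4 libraries) and of isolated muscle stem cells (4 libraries) are set beside the results below. Classes of genes described near the end also drew on stem cells isolated with alpha-amanitin (4 libraries) or with DMSO (4 libraries). A pull-down from animals without the transgene was not analysed here. Labelled RNA and unlabelled RNA carried through the pull-down therefore cannot be told apart.

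UPRT, uracil phosphoribosyltransferase, joins uracil to a ribose phosphate and lets cells that carry it build 4tU into new RNA, where the sulphur serves as a handle for pull-down. Pax7-CreER is a tamoxifen-activated Cre recombinase driven from Pax7, the transcription factor of satellite cells, the stem cells that lie beside muscle fibres. A short label favours RNA made recently, so transcripts that turn over fast, or that were being induced, weigh more in it, whereas a long label approaches the steady state and gives more weight to stable messages such as those of the contractile apparatus. Levels below are the authors' RPKM (reads per kilobase of gene model, relative to scaled library size). Fold changes and differences are on the log2(RPKM + 0.5) scale, 6 h minus 1 d, so that changes of low genes come out smaller than they are.

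The label calls the material skeletal muscle stem cells, but Pax7, the defining marker of that cell type, was low in both groups, while other genes of the satellite cell list, described further on, reached higher levels (Sdc4 118 RPKM in the 6 h label). Pax7 stood at 0.402, 0.282, 0.277 and 0.311 RPKM in the 6 h label and at 0.22, 0.159, 0.115 and 0.219 in the 1 d label, against 17.9 ± 1.2 in isolated stem cells (SD, n = 4 here and throughout). The 6 h libraries all lay above the 1 d libraries, and all 8 lay below the level of 1 RPKM set for testing. A list of 36 contractile and metabolic genes of the fibre made up 17.6 to 18% of reads per 6 h library and 31.6 to 32% per 1 d library. Their share was 31.5% in the 4 d label and 30% in whole muscle. In bulk samples of this kind, fewer cells of a type and less RNA per cell cannot be told apart.

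Each 6 h library held 30933516 to 87375972 recovered reads, and each 1 d library 46839152 to 60883815. The 6 h label replicate 4 held the most, and the other 3 held at most 36263387. Correlations of log levels across genes were 0.996 to 0.999 between libraries of a group and 0.921 to 0.937 between the groups. No pair of replicates held identical values, and replicates differed by more than read sampling (chi-square per gene 1.32 to 2.43), so each was kept. The share of reads on 14 gene models of repeated sequence was 15.4 to 20.7% with 6 h of label and 0.742 to 0.931% with 1 d. Shares given here are of all reads and were not rescaled, so these repeat reads lower the 6 h share of all other genes. Because 2 large blocks of reads moved in opposite ways, the medians of lists and classes and the single genes named below were also computed under 5 other library scalings, and signs that turned are given beside them. Values without the filter on low values were not computed under them.

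Most genes differed between the label times. Of 11822 genes tested, 10188 (86.2%) differed at an adjusted p under 0.05 (limma, Benjamini-Hochberg), 5913 of them (50%) higher in the 6 h label and 4275 (36.2%) lower. Differences of 2-fold or more were found upward for 1431 genes (12.1%) and downward for 677 (5.73%), and of 4-fold or more for 156 and 31 genes. The 4 libraries of one group did not overlap those of the other for 81.5% of genes, 47.4% with the 6 h label higher and 34.1% lower. With calls this common, a call alone says little about a gene, and the lists are read by the size of their differences against the median of all genes, 0.13. That median was 0.10 with factors from the median of ratios, 0.25 with library sizes from all reads, 0.50 without the repeat models and −0.85 without the genes enriched in whole muscle (−0.16 without both). Without the filter on low values 6816 of 16979 genes were higher and 6740 lower, with a median of −0.02. The split of calls moved with the scaling, from 8266 higher and 2301 lower without the repeat models to 1207 higher and 9387 lower without the muscle-enriched genes.

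**Figure D1:**
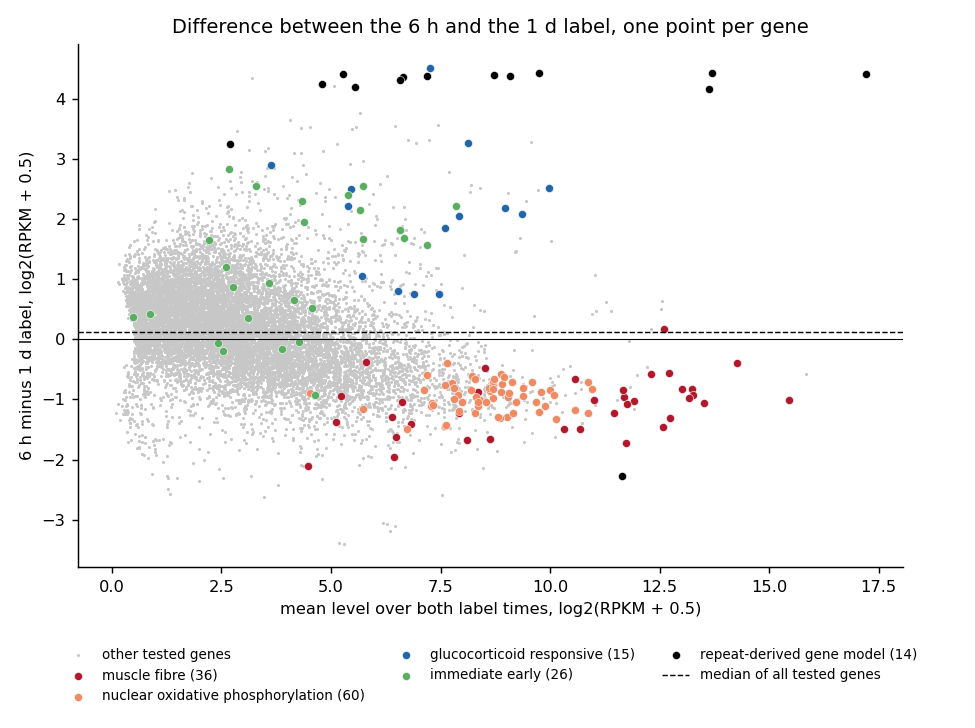
Each point is 1 of 11822 tested genes, placed by its mean level over both label times (x axis, log2(RPKM + 0.5)) and its difference between the 6 h and the 1 d label (y axis, same scale). Coloured points are members of 5 lists, with the number tested in the key; the dashed line is the median of all genes, 0.13. The 60 nuclear oxidative phosphorylation genes and 35 of 36 fibre genes lie below 0, and the 15 glucocorticoid-responsive genes lie above it.

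Glucocorticoid-responsive genes had the highest median of the 38 lists after the models of repeated sequence. All 15 tested glucocorticoid-responsive genes were higher, 12 of them by 2-fold or more, with a median difference of 2.09 against 0.13 for all genes and a sign that held under all 5 scalings. Together they made up 1.26 to 1.46% of reads per 6 h library and 0.242 to 0.293% per 1 d library. Glucocorticoids bind a nuclear receptor that acts at DNA elements to switch on fuel-sparing genes in muscle, and FoxO factors act beside it on protein breakdown. Several genes stand on more than 1 of the lists used here, such as Pdk4, Per1, Dusp1, Mt1 and Mt2.

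Ddit4, an inhibitor of the growth kinase mTORC1 (chr10:59949675-59951770, minus strand, mm10), had the largest rise among the genes known by name. Its libraries stood at 236, 331, 315 and 290 RPKM in the 6 h label and at 14.1, 11.3, 10.8 and 12.7 in the 1 d label, 23-fold apart (difference 4.52 ± 0.10 SE, adjusted p = 8.98e-13). The groups were far apart, and Ddit4 stood at 10.5 ± 1.38 RPKM in the 4 d label and 6.04 ± 0.367 in whole muscle, also far below the 6 h label. Sgk1, a kinase induced by corticosteroids, stood at 472, 543, 521 and 494 RPKM against 54.2, 52.6, 51.7 and 50.9, a 9.6-fold difference (3.26 ± 0.05, adjusted p = 5.46e-14). Tsc22d3, which encodes the glucocorticoid-induced leucine zipper protein, was at 778 to 850 RPKM in the 6 h label and 173 to 186 in the 1 d label, 4.55-fold higher. The metallothioneins Mt1 and Mt2, which bind zinc and copper, were 4.26-fold and 4.16-fold higher, at 1057 ± 37.7 against 248 ± 11.4 RPKM and 389 ± 17.1 against 93.2 ± 5.84 RPKM. Within each of these genes the 4 libraries of a group lay close together and no library crossed over. The same lack of overlap held for 81.5% of tested genes, and was a condition for naming Ddit4.

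The FoxO and atrophy list was called in both directions, as were tested genes as a whole (50% higher and 36.2% lower). Of its 19 tested genes 11 were higher and 8 lower, 8 and 1 of them by 2-fold or more, and its median of 0.65 turned to −0.44 when libraries were scaled without muscle-enriched genes. Foxo1, the transcription factor itself, stood at 53.9, 67.3, 65.6 and 66.9 RPKM in the 6 h label and at 5.27, 6.71, 6.15 and 6.66 in the 1 d label, a 9.54-fold difference (3.25 ± 0.08, adjusted p = 1.97e-12). The 6 h label replicate 1 was the lowest of its group and still far above every 1 d library. Klf15, a glucocorticoid-induced factor of amino acid breakdown, was 3.23-fold higher, at 182 ± 16.7 against 55.7 ± 2.22 RPKM. The 2 ubiquitin ligases best known from muscle wasting, singled out after their values were seen, differed from each other in size. Trim63 was 3.1-fold higher, at 1418, 1662, 1616 and 1589 RPKM against 463, 528, 563 and 476. Fbxo32 was at 155, 154, 158 and 163 RPKM against 112, 130, 139 and 116, only 1.27-fold higher (0.34 ± 0.06, adjusted p = 1.52e-04), and its difference was −0.76 when scaled without muscle-enriched genes. Its call was lost without both blocks (0.02) and with all groups in 1 fit (adjusted p = 0.236).

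Genes of the fuel switch from glucose to fatty acids moved in both directions, as did tested genes as a whole (50% higher and 36.2% lower). Of 21 tested genes 14 were higher and 5 lower, with a median of 0.69 that turned to −0.40 when scaled without muscle-enriched genes. Pdk4, the kinase that shuts glucose carbon out of the citric acid cycle (singled out after its values were seen), stood at 1612, 1779, 1727 and 1724 RPKM in the 6 h label and at 226, 336, 373 and 278 in the 1 d label, 5.73-fold higher. Its level was 47.6 ± 7.48 in the 4 d label. Ucp3, the uncoupling protein of muscle mitochondria, was at 285, 354, 337 and 309 RPKM against 25, 26.6, 28.2 and 26.2, 11.9-fold higher (3.57 ± 0.06, adjusted p = 2.41e-13). Angptl4, a secreted inhibitor of lipoprotein lipase, was 8.78-fold higher (50.5 ± 4.03 against 5.31 ± 0.452 RPKM), and Ppargc1a, the coactivator of mitochondrial gene expression, 6.24-fold higher (32 ± 4.24 against 4.67 ± 0.226 RPKM). Acadm, the medium-chain acyl-CoA dehydrogenase, went the other way, at 84.6 ± 1.28 against 203 ± 8.23 RPKM, 2.39-fold lower. Acadl, Hadha and Hadhb, which act in the same pathway and are named with their values in view, had differences of −0.83, −0.99 and −1.11.

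Other genes among the 10 largest rises had roles in metabolism, transcription and calcium handling. Coq10b, a protein that binds coenzyme Q, stood at 85.8, 104, 98 and 90.6 RPKM in the 6 h label and at 5.84, 7.13, 6.69 and 6.19 in the 1 d label, 13.6-fold higher. Its paralogue Coq10a, singled out after its values were seen, was at 31.9, 30.1, 34.2 and 42 RPKM against 116, 140, 117 and 155, 3.78-fold lower. The pair moved in opposite directions. Libraries overlapped in neither gene, which held for 81.5% of tested genes and was a condition for naming Coq10b. Pck1, the rate-limiting enzyme of gluconeogenesis and of glycerol synthesis in fat, was 10-fold higher (276 ± 10.9 against 27.1 ± 0.994 RPKM), and Txnip, a thioredoxin-binding protein that limits glucose uptake, 9.71-fold higher (1375 ± 77.2 against 141 ± 2.89 RPKM). Ell2, an elongation factor of RNA polymerase II, was 11.7-fold higher (162 ± 24.5 against 13.3 ± 0.833 RPKM). Slc25a25, a calcium-regulated ATP carrier of the mitochondrial membrane, was 11.6-fold higher, at 69.7 to 105 RPKM against 6.49 to 7.76. Pln, phospholamban, which restrains the calcium pump of slow muscle and heart, was 11.5-fold higher (36.4 ± 2 against 2.72 ± 0.256 RPKM). Chac1, an enzyme that degrades glutathione, was 9.95-fold higher (198 ± 5.27 against 19.5 ± 2.36 RPKM).

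**Figure D2:**
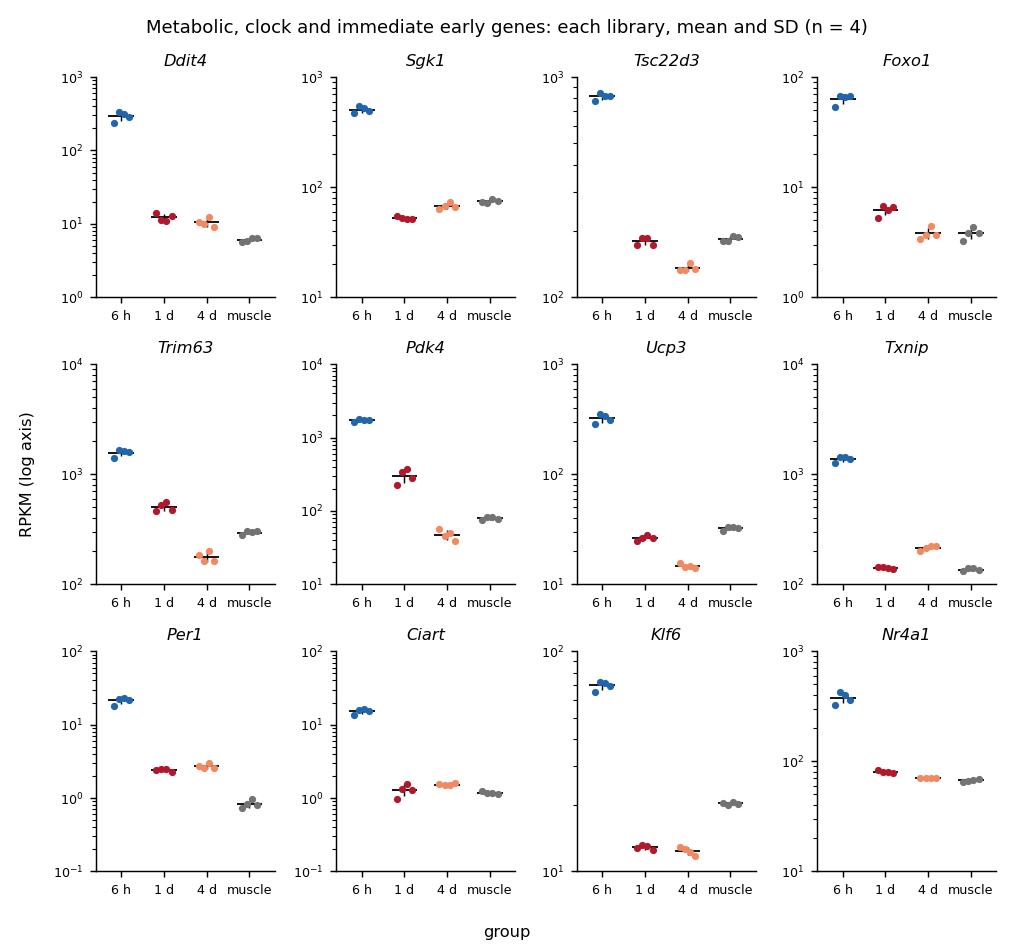
Each panel shows 1 gene, with RPKM on a log axis and 4 libraries in each of 4 groups (6 h, 1 d and 4 d label, and total RNA of whole muscle); bars are the mean and SD. The 6 h libraries of Ddit4 (236 to 331 RPKM) stand above all other libraries, and in all 12 genes the 6 h group is the highest with no overlap.

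Sequences around the start sites of 5 of these and of the clock genes described next are printed as examples of windows that hold a DNA element of a regulator known for these lists. Windows ran from 250 bases before to 50 bases after each RefSeq start (GRCm38.p6, the assembly called mm10), and 32851 windows were searched on both strands. The glucocorticoid receptor element was searched as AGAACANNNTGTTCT, found in 3 windows (0.00913%), and in a relaxed form, GNACANNNTGTNC, which includes the first, found in 156 windows (0.475%). The FoxO element TGTTTAC was in 3.65% of windows and the E-box CACGTG, bound by the clock factors, in 7.15%. Counted per gene, over the 8779 tested genes with a window, the shares were 0.0114% and 0.433% for the 2 receptor forms, 3.09% for the FoxO element and 12.1% for the E-box. Capitals mark the matches, and where matches of both receptor forms coincide the longer one is shown. Sgk1 comes from chr10:21993656-21993760 (plus strand, 1 of 6 listed starts), Trim63 from chr4:134314881-134314977 (plus), Txnip from chr3:96557791-96557887 (plus), Per1 from chr11:69098738-69098833 (plus, 1 of 2 listed starts) and Ciart from chr3:95882229-95882389 (minus).
Sgk1: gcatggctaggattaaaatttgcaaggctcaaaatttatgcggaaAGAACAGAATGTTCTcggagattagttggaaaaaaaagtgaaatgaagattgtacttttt
Trim63: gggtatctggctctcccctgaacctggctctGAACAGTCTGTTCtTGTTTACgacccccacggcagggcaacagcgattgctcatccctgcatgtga
Txnip: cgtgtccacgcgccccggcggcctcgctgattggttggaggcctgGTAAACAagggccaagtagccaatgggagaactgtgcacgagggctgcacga
Per1: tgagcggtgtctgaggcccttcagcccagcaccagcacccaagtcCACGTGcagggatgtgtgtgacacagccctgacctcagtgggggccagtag
Ciart: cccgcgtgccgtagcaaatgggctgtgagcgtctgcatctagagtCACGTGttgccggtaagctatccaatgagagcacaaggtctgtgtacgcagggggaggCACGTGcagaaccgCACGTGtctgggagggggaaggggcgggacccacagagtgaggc

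Sgk1 held the full receptor element 189 bases before its start, and was the only 1 of 14 glucocorticoid-responsive genes with a window to do so; Mt1 and Sgk1 held the relaxed form. Trim63 held the relaxed form and, 1 base after it, the FoxO element, and Txnip held the FoxO element on the reverse strand. Of 16 FoxO and atrophy genes with a window, Mt1 and Trim63 held the relaxed receptor element and Sesn1 and Trim63 the FoxO element. Among 16 clock genes with a window 5 held an E-box, namely Bhlhe41, Ciart, Cry1, Per1 and Tef, and Ciart held 3 of them between 116 and 44 bases before its start. Of those 5 only Ciart and Per1 were higher in the 6 h label. Bhlhe41 (−0.45) and Cry1 (−0.49) were lower. Tef (−0.04) did not pass the test, and its difference turned to 0.09 with all reads and 0.36 without the repeat models. A match is a description of the letters in these windows, and most members of each list did not hold its element.

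Clock genes, whose products form the feedback loop of the circadian rhythm and which glucocorticoids can also reset, included some of the larger differences. Of 18 tested genes 13 were higher and 4 lower, 7 and 1 of them by 2-fold or more, with a median of 0.55 that turned to −0.39 when scaled without muscle-enriched genes. Per1, a repressor of the loop, stood at 17.9, 22.5, 23.2 and 21.8 RPKM in the 6 h label and at 2.44, 2.49, 2.5 and 2.24 in the 1 d label, 7.46-fold higher (2.90 ± 0.07, adjusted p = 1.73e-12). Ciart, another repressor, was at 13.6, 15.6, 16.5 and 15.4 RPKM against 0.98, 1.34, 1.56 and 1.29, 8.85-fold higher. The other Period genes followed in the order Per2 (4.36-fold, 4.59 ± 0.409 against 0.665 ± 0.0877 RPKM) and Per3 (2.72-fold, 7.98 ± 0.264 against 2.62 ± 0.111 RPKM). The 1 d libraries of Per2 all lay below 1 RPKM, so it passed the filter through the 6 h label. Activators of the loop, singled out after their values were seen, did not move as one, and Clock and Rora had differences of 0.22 (−0.76 without muscle-enriched genes and −0.07 without both blocks) and 0.59 (−0.48 without muscle-enriched genes). Arntl, the partner of Clock, was 1.34-fold lower (14.4 ± 0.943 against 19.4 ± 0.579 RPKM), with a difference of −0.02 that was not called when scaled without the repeat models. Harvest time is not given in the labels, and its part in these differences was not tested.

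Immediate early genes, which cells transcribe within minutes of a stimulus and whose messages decay fast, were mostly higher in the 6 h label. Of 26 tested genes 21 were higher and 2 lower (23 and 2 of 30 without the filter on low values), 14 of the former by 2-fold or more, with a median of 1.39 that kept its sign under all 5 scalings. Klf6, a zinc finger factor, stood at 65.6, 72.4, 71.9 and 69.8 RPKM in the 6 h label and at 12.8, 13.2, 13.1 and 12.5 in the 1 d label, 5.26-fold higher (2.40 ± 0.04, adjusted p = 2.41e-13). Atf3, a stress-induced repressor, was 4.95-fold higher (33.3 ± 1.81 against 6.32 ± 0.163 RPKM), and Jun 2.96-fold (218 ± 13.9 against 73.2 ± 1.76 RPKM). Ctgf, a secreted matrix protein induced by YAP, was 3.88-fold higher (32.8 ± 1.45 against 8.07 ± 0.151 RPKM). The orphan nuclear receptors Nr4a1 and Nr4a3, singled out after their values were seen, were 4.64-fold and 7.14-fold higher, at 378 ± 42.6 against 80.7 ± 2.47 RPKM and 10.7 ± 1.46 against 1.06 ± 0.172 RPKM.

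Fos, Egr1 and Hspa1a, which stood high in isolated stem cells, differed here by less than 2-fold under the main scaling. Fos was at 15.6, 15.2, 15.7 and 15.1 RPKM in the 6 h label and 7.88, 8.07, 7.57 and 7.6 in the 1 d label, 1.92-fold higher, and its difference was −0.11 when scaled without muscle-enriched genes. It stood at 876 RPKM in isolated cells. Egr1 was at 4.75, 5.14, 4.94 and 4.22 RPKM against 5.64, 4.46, 5.06 and 4.76, a difference of −0.06 ± 0.07 (adjusted p = 0.463) within overlapping groups, against 1023 RPKM in isolated cells. Scaling moved the Egr1 difference from 0.32 without the repeat models to −1.05 without muscle-enriched genes. Hspa1a, an inducible heat shock chaperone whose copy Hspa1b can share reads, was at 3.61, 3.23, 3.83 and 3.6 RPKM against 3.05, 2.91, 3.4 and 3.03, 1.13-fold higher with overlapping libraries (0.18 ± 0.06, adjusted p = 0.015). Its difference was −0.78 without muscle-enriched genes and −0.11 without both blocks, and its call was lost with all groups in 1 fit (adjusted p = 0.539) and without 6 h label replicate 3 (adjusted p = 0.054). Heat shock genes as a list were mixed, with 6 of 18 higher and 9 lower and a median of −0.12 that turned to 0.02 with all reads and 0.30 without the repeat models. Dnajb1 was 2.15-fold higher (21 ± 1.07 against 9.47 ± 0.573 RPKM; not called without muscle-enriched genes, at 0.04) and Hsph1 2.33-fold lower (3.89 ± 0.199 against 9.71 ± 0.247 RPKM).

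Genes of mRNA decay and ERK feedback, which shut messages and signals down again, were more often higher than lower. Of 21 tested genes 13 were higher and 4 lower, 7 and 1 by 2-fold or more, with a median of 0.78 that turned to −0.26 when scaled without muscle-enriched genes. Over all tested genes 50% were higher and 36.2% lower, so that more rises than falls were not particular to this list. Zfp36, which marks AU-rich messages for decay, stood at 74, 92.9, 84.2 and 78.8 RPKM in the 6 h label and at 18.2, 18, 18.6 and 17.8 in the 1 d label, 4.43-fold higher (2.15 ± 0.06, adjusted p = 3.84e-12). Among the phosphatases of MAP kinases, Dusp1 was 3.52-fold higher (148 ± 12.8 against 41.7 ± 3.76 RPKM) and Dusp6 2.46-fold higher (19.9 ± 0.617 against 7.82 ± 0.111 RPKM). Dusp10, of the same family, was 2.22-fold lower, at 15.1, 13.7, 15.2 and 14.6 RPKM against 32.4, 34.8, 33.2 and 31.8. In the NF-kB and cytokine list 11 of 20 tested genes were higher and 5 lower. Its median of 0.15 was close to that of all genes and turned to −0.71 without muscle-enriched genes and −0.12 without both blocks. Nfkbia, the inhibitor of NF-kB, was 4.01-fold higher (164 ± 4.31 against 40.5 ± 2.5 RPKM). Of the p53 targets 10 of 16 were higher and 5 lower, not far from the shares over all tested genes. Their median was 0.23 (−0.72 without muscle-enriched genes and −0.05 without both blocks). Trp53inp1, a p53-induced protein of autophagy, was 9.13-fold higher (20.7 ± 1.65 against 1.82 ± 0.185 RPKM), and Ccng1, another target, 2.22-fold lower (183 ± 5.18 against 407 ± 15.1 RPKM).

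**Figure D3:**
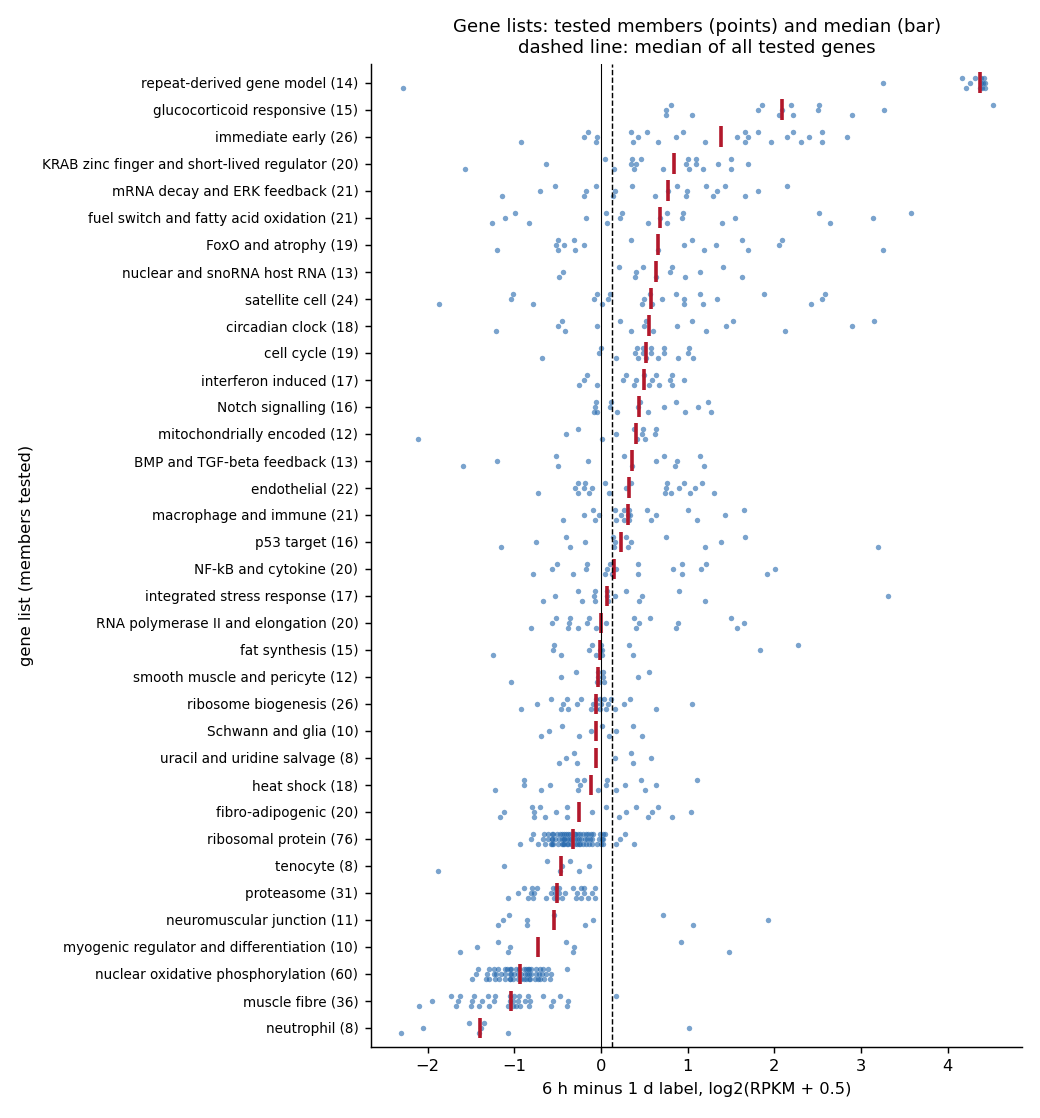
Each row is a gene list with 8 or more tested members (number in brackets), ordered by its median; each point is the difference of 1 member between the 6 h and the 1 d label (x axis, log2(RPKM + 0.5)), the red bar is the list's median and the dashed line the median of all genes, 0.13. Repeat-derived models (4.38), glucocorticoid-responsive genes (2.09) and immediate early genes (1.39) have the highest medians, and neutrophil (−1.40), fibre (−1.03) and nuclear oxidative phosphorylation genes (−0.93) the lowest.

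Satellite cell genes did not move as a unit, nor did tested genes as a whole (50% higher and 36.2% lower). Of 24 tested genes 15 were higher and 4 lower (18 and 4 of 27 without the filter on low values), 7 and 3 of them by 2-fold or more, with a median of 0.57 that turned to −0.37 when scaled without muscle-enriched genes. Myf5, the myogenic factor of committed satellite cells, stood at 10.1, 9.06, 9.3 and 9.16 RPKM in the 6 h label and at 0.977, 1.61, 1.41 and 1.45 in the 1 d label, 5.36-fold higher (2.42 ± 0.09, adjusted p = 4.17e-11). It was at 1.26 ± 0.434 RPKM in the 4 d label, 1.58 ± 0.0316 in whole muscle and 76 in isolated cells. Sdc4, a heparan sulphate proteoglycan on satellite cells, was 6.01-fold higher (118 ± 9.59 against 19.2 ± 1.1 RPKM), and the C-type lectin Chodl 5.86-fold (25.1 ± 0.919 against 3.89 ± 0.419 RPKM). Cxcr4, a chemokine receptor, was 3.67-fold higher (4.38 ± 0.239 against 0.831 ± 0.0886 RPKM). Its 1 d libraries all lay below 1 RPKM, so it passed the filter through the 6 h label. Itga7, the laminin receptor that satellite cells share with fibres, went down, from 30.5, 31.3, 29.6 and 29 RPKM in the 1 d label to 8.43, 7.66, 8.03 and 7.45 in the 6 h label, 3.65-fold lower (−1.87 ± 0.05, adjusted p = 1.97e-12). Des, the desmin gene, which fibres also express (singled out after its values were seen), differed by −1.03 (674 against 1380 RPKM). The summed share of the list was lower in the 6 h label, 0.341 to 0.363% of all reads against 0.458 to 0.484%, although most members were higher. Reads on repeat models also lower this share at 6 h. Pax7, too low for the test with the filter, had a difference of 0.27 without it (adjusted p = 0.00366).

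Notch signalling, which keeps satellite cells quiescent, had 10 of 16 tested genes higher, none lower and 6 that did not pass (11 of 17 higher without the filter), with a median of 0.44 that turned to −0.52 when scaled without muscle-enriched genes. The receptor Notch2 was 2.41-fold higher (2.81 ± 0.127 against 0.873 ± 0.106 RPKM) and the coactivator Maml1 2.35-fold (2.81 ± 0.115 against 0.915 ± 0.136 RPKM). The 1 d libraries of Notch2 all lay below 1 RPKM, so it passed the filter through the 6 h label. The transcription factor Rbpj and its target Hey1 were 1.96-fold and 1.82-fold higher, at 8.84 ± 0.281 against 4.27 ± 0.205 RPKM and 4.59 ± 0.149 against 2.29 ± 0.125 RPKM, with differences of −0.05 and −0.09 when scaled without muscle-enriched genes. 

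The 4 myogenic factors of the MyoD family parted ways. Of 10 tested myogenic regulators and differentiation genes 2 were higher and 8 lower (2 and 10 of 12 without the filter), 1 and 5 by 2-fold or more, with a median of −0.73 that kept its sign under all 5 scalings. Myf6, the factor of mature fibres, stood at 887, 856, 860 and 894 RPKM in the 6 h label and at 326, 315, 310 and 303 in the 1 d label, 2.79-fold higher (1.48 ± 0.04, adjusted p = 3.75e-12). Myod1, which commits cells to muscle, was at 11.5, 10.9, 12.4 and 11.5 RPKM against 30.8, 32.9, 33.4 and 30.9, 2.7-fold lower (−1.43 ± 0.05, adjusted p = 1.61e-11). Myog, the factor of differentiation and the other gene of the list that was higher (named for that reason), had a difference of 0.93 (−0.16 without muscle-enriched genes). Mef2c, a partner of these factors, was 2.07-fold lower (37.5 ± 0.99 against 78.2 ± 2.18 RPKM), and Actc1, cardiac actin, 3.08-fold lower (542 ± 22.9 against 1671 ± 130 RPKM). Myf5 and Myf6 were thus higher and Myod1 lower. Libraries did not overlap in any of the 3, as in 81.5% of tested genes.

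Genes of the neuromuscular junction were mostly lower in the 6 h label. Of 11 tested genes 3 were higher and 8 lower (3 and 10 of 13 without the filter), with a median of −0.55 that kept its sign under all 5 scalings. Musk, the kinase that answers agrin from the nerve, stood at 20.2, 29.2, 26.8 and 24 RPKM in the 6 h label and at 6.22, 6.03, 6.37 and 6.14 in the 1 d label, 3.79-fold higher (1.92 ± 0.09, adjusted p = 1.90e-10). Dok7, its adaptor, singled out after its values were seen, was 2.09-fold higher (17.3 ± 1.59 against 8.03 ± 0.139 RPKM), with a difference of 0.00 that was not called when scaled without muscle-enriched genes. Lrp4, the co-receptor through which agrin reaches Musk (named with its value in view), was too low for the filter and had a difference of −0.27 without it. Rapsn, the scaffold that anchors acetylcholine receptors, was 2.18-fold lower (18 ± 0.784 against 39.9 ± 1.84 RPKM). The receptor subunits Chrna1 and Chrne were 2.28-fold and 2.09-fold lower, at 3.01 ± 0.113 against 7.53 ± 0.527 RPKM and 4.39 ± 0.291 against 9.72 ± 0.507 RPKM.

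**Figure D4:**
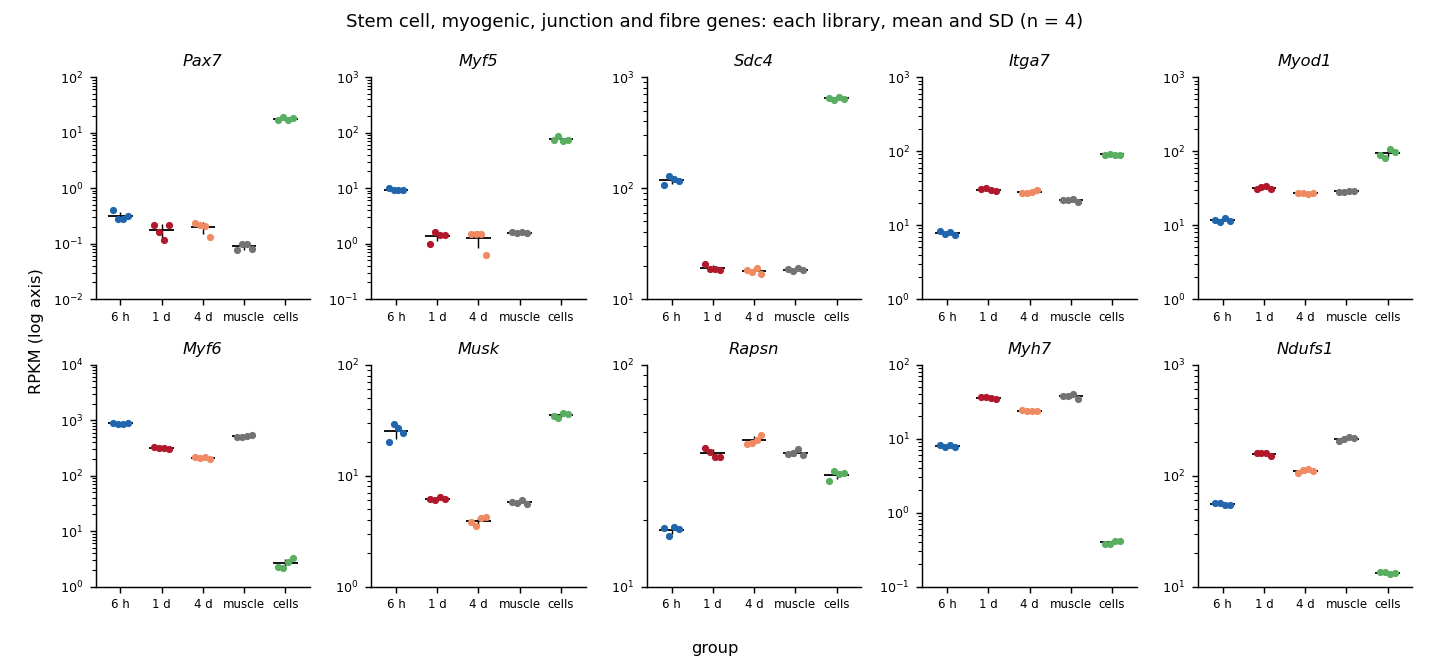
Each panel shows 1 gene, with RPKM on a log axis and 4 libraries in each of 5 groups (6 h, 1 d and 4 d label, total RNA of whole muscle and of isolated stem cells); bars are the mean and SD. Myf5, Sdc4, Myf6 and Musk are higher in the 6 h than in the 1 d label, Itga7, Myod1, Rapsn, Myh7 and Ndufs1 are lower, and Pax7 stays below 1 RPKM in every group but the isolated cells (17.9).

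Structural and metabolic genes of the fibre were nearly all lower in the 6 h label. Of 36 tested fibre genes 35 were lower and 1 higher (22 and none with all groups in 1 fit), 21 of the former by 2-fold or more, with a median of −1.03 that kept its sign under all 5 scalings. Acta1, the actin of skeletal muscle, was 2.02-fold lower (29939 ± 1077 against 60351 ± 1512 RPKM, adjusted p = 0.058 with all groups in 1 fit), and stood at 60577 ± 1533 in the 4 d label. Of the 4 fibre genes with the smallest adjusted p, 3 are best known from slow fibres. Myh7, the slow myosin heavy chain, stood at 8.22, 7.77, 8.21 and 7.62 RPKM in the 6 h label and at 36.8, 36.3, 36 and 34 in the 1 d label, 4.29-fold lower (−2.10 ± 0.04, adjusted p = 6.11e-13). Tnni1, slow troponin I, was 3.86-fold lower (35.1 ± 1.78 against 137 ± 6.32 RPKM), and Mybpc1, slow myosin-binding protein C, 3.2-fold lower (131 ± 2.43 against 420 ± 15 RPKM). Myh1, a fast myosin heavy chain, was 3.14-fold lower (191 ± 2.59 against 603 ± 17.3 RPKM). The groups did not overlap in any of these genes, nor in 81.5% of all tested genes.

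Oxidative phosphorylation genes encoded in the nucleus were lower without exception. All 60 were lower, 26 by 2-fold or more, with differences from −1.49 to −0.39 and a median of −0.93 that kept its sign under all 5 scalings. Ndufs1, a subunit of complex I, stood at 56.3, 57.1, 54.8 and 54.5 RPKM in the 6 h label and at 161, 160, 159 and 151 in the 1 d label, 2.81-fold lower (−1.49 ± 0.04, adjusted p = 2.22e-12). Sdha, of complex II, was 2.68-fold lower (108 ± 2.21 against 289 ± 5.2 RPKM), and Ndufa10, also of complex I, 2.71-fold (105 ± 2.83 against 285 ± 13.1 RPKM). Their partners encoded in the mitochondrion did not follow. Of 12 tested mitochondrial messages 8 were higher and 3 lower, with a median of 0.40 that turned to −0.66 when scaled without muscle-enriched genes. ND1, of complex I, was 1.55-fold higher (7363 ± 290 against 4753 ± 166 RPKM), with a difference of −0.47 under that scaling. ND4L, whose reading frame overlaps that of ND4, was 4.33-fold lower, at 13.1, 5.24, 5.95 and 6.13 RPKM against 29.6, 29.3, 30 and 42.1.

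Short mitochondrial tRNA gene models held the largest falls. Of 19 such models, 59 to 75 bases long, 18 were lower, 15 by 2-fold or more, and 1 was higher, with a median of −1.84. The model mt-Tt, of the threonine tRNA, stood at 11.9, 5.43, 4.31 and 5.13 RPKM in the 6 h label and at 74.2, 60.3, 69.1 and 78 in the 1 d label, 10.6-fold lower (−3.40 ± 0.22, adjusted p = 6.97e-09). The valine model mt-Tv was 8.64-fold lower, at 34.8, 13.4, 14.1 and 14.3 RPKM against 176, 120, 155 and 178, and the histidine model mt-Th 9.12-fold lower, at 37, 9.39, 11.8 and 12.5 RPKM against 195, 110, 131 and 143. Few reads lay behind the 6 h values. They were 20, 11, 8 and 23 for mt-Tt, 60, 28, 27 and 66 for mt-Tv and 62, 19, 22 and 56 for mt-Th. In RPKM, the 6 h label replicate 1 stood above the other 3 of its group in each. Without it the differences were −3.70 for mt-Tt, −3.43 for mt-Tv and −3.61 for mt-Th. These libraries read polyadenylated RNA from sheared cDNA, and reads of the long mitochondrial precursor can fall on such short models. The largest falls outside the mitochondrion were of Tbx1, Mafa and Pm20d2. Tbx1, a T-box factor of muscle and pharyngeal development, was at 2.2, 2.42, 2.48 and 3.33 RPKM against 17.7, 19.2, 17.6 and 20, 6.19-fold lower. Mafa, a bZIP factor, was 5.39-fold lower (3.95 ± 1.19 against 22.8 ± 1.63 RPKM) and stood at 3 ± 0.443 RPKM in whole muscle, and Pm20d2, an enzyme of dipeptide metabolism, was 5.11-fold lower (0.803 ± 0.203 against 6.12 ± 0.543 RPKM).

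Housekeeping machines of protein turnover were lower by less. Of 31 proteasome genes 29 were lower and none higher, with a median of −0.51 that kept its sign under all 5 scalings. Psmd2, of the regulatory particle, was 1.94-fold lower (54.5 ± 1.44 against 106 ± 3.14 RPKM). Of 76 ribosomal protein genes 62 were lower and 4 higher, none by 2-fold, with a median of −0.32 that turned to 0.08 without the repeat models. Rpl13, of the large subunit, was 1.91-fold lower (103 ± 3.97 against 198 ± 9.43 RPKM), and many ribosomal protein genes have processed copies that can share reads. The ribosome biogenesis list was divided, with 6 of 26 higher, 9 lower and 11 that did not pass. Its median of −0.06 turned to 0.08 with all reads and 0.34 without the repeat models.

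Genes of the transcription machinery were called in both directions. In the list of RNA polymerase II and elongation factors 9 of 20 tested genes were higher and 8 lower, near the shares over all tested genes (50 and 36.2%). The median of the list was 0.00. It was −0.03 with the median of ratios, −1.04 without muscle-enriched genes and −0.31 without both blocks. Ccnt1 and Ccnt2, the cyclins of the elongation kinase P-TEFb, were 3.14-fold and 2.96-fold higher, at 9.97 ± 0.505 against 2.83 ± 0.167 RPKM and 10.6 ± 0.443 against 3.25 ± 0.0629 RPKM. Hexim1, which holds that kinase inactive, was 2.83-fold higher, at 10.9, 9.86, 11 and 10.9 RPKM against 3.59, 3.4, 3.61 and 3.16. Polr2i, a small subunit of the polymerase singled out after its values were seen, was 1.74-fold lower (17.8 ± 1.33 against 31.4 ± 2.76 RPKM), while Polr2d, another, was 1.82-fold higher (47.5 ± 0.408 against 25.9 ± 1.79 RPKM) and had a difference of −0.22 without muscle-enriched genes. Of 20 tested zinc finger and other short-lived regulators 17 were higher and 2 lower (18 and 2 of 22 without the filter), 9 and 1 by 2-fold or more, with a median of 0.85 (−0.14 without muscle-enriched genes). Zkscan3, a repressor of autophagy genes, was 2.84-fold higher (14.4 ± 0.388 against 4.76 ± 0.132 RPKM), whereas Zfp106, an RNA-binding protein needed by motor units, was 2.97-fold lower (14.4 ± 0.215 against 43.7 ± 1.61 RPKM). Nuclear RNAs and snoRNA host RNAs were higher for 11 of 13 and lower for 2 (11 and 2 of 17 without the filter), with a median of 0.64 (−0.39 without muscle-enriched genes). Neat1, the scaffold of paraspeckles, was 3.1-fold higher (95.7 ± 5.29 against 30.6 ± 2.07 RPKM), and Malat1, singled out after its values were seen, 2.64-fold higher, at 291, 398, 412 and 423 RPKM against 167, 130, 159 and 119.

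Markers of other cell types in muscle moved in different ways. Macrophage and immune genes were higher for 16 of 21 and lower for 2, with a median of 0.31 that turned to −0.75 without muscle-enriched genes and lay just below 0 without both blocks. Their share was 0.11 to 0.116% of reads with 6 h of label and 0.0802 to 0.0884% with 1 d. Fcgr3, an immunoglobulin receptor, was 3.14-fold higher (25.7 ± 1.12 against 7.85 ± 0.292 RPKM), and Cd163, the haemoglobin scavenger receptor, 2.7-fold (6.26 ± 0.349 against 2 ± 0.145 RPKM). Endothelial genes were higher for 12 of 22 and lower for 8, near the shares over all tested genes (50 and 36.2%). Their median was 0.32 (−0.77 without muscle-enriched genes, and just below 0 without both blocks). They took 0.233 to 0.244% of reads with 6 h of label and 0.126 to 0.128% with 1 d. Fabp4, a fatty acid carrier of capillaries and fat, was 2.11-fold higher (2821 ± 90.6 against 1336 ± 82.1 RPKM), with a difference of −0.02 without muscle-enriched genes.

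Fibro-adipogenic genes were lower for 11 of 20 and higher for 8, with a median of −0.25 that turned to 0.16 without the repeat models, and Gsn, gelsolin, was 2.17-fold lower (321 ± 7.25 against 698 ± 25 RPKM). All 8 tested tenocyte genes were lower (9 lower and 2 higher of 11 without the filter), with a median of −0.46 under the main scaling and the same sign under the other 5, and Scx, the tendon factor, was 3.69-fold lower (5.46 ± 0.893 against 21.4 ± 2.53 RPKM). Erythroid genes and most neutrophil genes were lower. All 7 tested erythroid genes were lower, with a share of 0.0354 to 0.0415% against 0.0748 to 0.078%, and Hba-a1, an α-globin whose copies can share reads, was 2.45-fold lower, at 191, 207, 198 and 186 RPKM against 496, 458, 490 and 472. Of 8 tested neutrophil genes 7 were lower, all by 2-fold or more (9 of 11 lower without the filter). Camp and Ngp, made in granulocyte precursors, were 4.97-fold and 4.15-fold lower, at 1.48 ± 0.454 against 9.2 ± 1.11 RPKM and 0.924 ± 0.33 against 5.35 ± 0.773 RPKM. The 1 neutrophil gene that was higher, Lcn2, which other cells also make, differed by 1.02 (−0.06 without muscle-enriched genes). The summed share of the neutrophil list overlapped between the groups, at 0.00548 to 0.00692% of all reads against 0.00558 to 0.00583%. Reads on repeat models, which lower shares at 6 h, were not taken out, and the overlap depends on that. The globin and Camp levels were higher again in the 4 d label, at 1603 ± 97.1 RPKM for Hba-a1 and 34.7 ± 6.39 for Camp. The part of cell types other than stem cells in the differences above was not tested.

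Fat cell genes were present in both groups. Of 15 tested genes of fat synthesis and storage 4 were higher and 5 lower, with a median of −0.02 that turned to 0.10 with all reads and 0.33 without the repeat models. Lep, the hormone leptin of fat cells, stood at 14.2, 18.2, 17.3 and 15 RPKM in the 6 h label and at 2.89, 3.04, 3.03 and 2.76 in the 1 d label, 4.84-fold higher (2.27 ± 0.07, adjusted p = 1.01e-11). Cidec, a lipid droplet protein, was 3.56-fold higher (206 ± 15.2 against 57.3 ± 1.46 RPKM), and Me1, malic enzyme, 2.38-fold lower (29.6 ± 1.42 against 71 ± 4.35 RPKM).

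Cell cycle genes were higher for 16 of 19 tested and lower for 1 (20 and 1 of 24 without the filter), mostly by less than 2-fold, with a median of 0.51 that turned to −0.26 without muscle-enriched genes. Cdk1, the mitotic kinase, stood at only 1.84 ± 0.0751 RPKM against 0.621 ± 0.0559, a 1 d mean below the 1 RPKM of the filter. Interferon-induced genes were higher for 13 of 17 and lower for 3, none by 2-fold, with a median of 0.50 (−0.46 without muscle-enriched genes). Of 13 feedback genes of BMP and TGF-beta signalling 8 were higher and 4 lower, beside 50% and 36.2% over all tested genes. Their median was 0.36 (−0.53 without muscle-enriched genes). Id1, a BMP target, was 2.29-fold higher (31.2 ± 1.83 against 13.4 ± 0.633 RPKM; not called without muscle-enriched genes, at 0.12), and Smad6, which inhibits the same pathway, 3.02-fold lower (1.08 ± 0.105 against 4.27 ± 0.104 RPKM).

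Classes of genes defined in libraries outside these 2 groups differed in their medians. Muscle-enriched genes, those called and 2-fold or more above isolated stem cells in whole muscle, took 59.2 ± 1.33% of reads in the 6 h label and 82.7 ± 0.543% in the 1 d label. Of the 4649 tested, 1222 were higher and 2838 lower in the 6 h label, with a median of −0.30 that turned to 0.09 without the repeat models. Their share is of all reads, of which the repeat models took 18.1% in the 6 h label and 0.82% in the 1 d label. It was not computed without those models. Stem-cell-enriched genes, defined the other way round, took 5.91 ± 0.332% against 3.63 ± 0.205%. Of 4978 such genes only 1972 passed the filter on low values, and without the filter 1932 were higher and 2064 lower, with a median of −0.06. Alpha-amanitin blocks RNA polymerase II, and genes called lower in stem cells when it was present during isolation, against DMSO, numbered 1412, of which 863 passed the filter. Without the filter 844 were higher and 338 lower in the 6 h label, with a median of 0.35 against −0.02 for all 16979 genes. Genes higher with alpha-amanitin had a median of −0.24 without the filter, with 1370 higher and 2585 lower. Among tested genes the medians were 0.61 for stem-cell-enriched genes, 0.71 for genes lower with alpha-amanitin and −0.25 for genes higher with it. The first 2 turned to −0.28 and −0.17 without muscle-enriched genes, and the last to 0.14 without the repeat models.

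The difference between the label times also ran with the length and base content of the transcript. In quintiles of tested genes from the shortest to the longest, the median was −0.18, 0.04, 0.16, 0.23 and 0.39. By the share of U in the longest GENCODE transcript, known for 99.2% of tested genes, the medians ran from −0.17 in the lowest quintile (at most 21.8% U) to 0.39 in the highest (at least 28.3% U). Among genes enriched in neither muscle nor stem cells the medians by U share were −0.01, 0.21, 0.34, 0.43 and 0.63, and the share of genes at least 2-fold higher ran from 5.14 to 26.7%. By length the medians of the same genes ran from 0.19 to 0.42. All quintiles hold only genes that passed the filter on low values, which a gene could pass through the group where it was high. They were not computed without the filter, which moved the median of all genes from 0.13 to −0.02. Scaling moved all quintiles together, so that the medians by length of all genes ran from 0.20 to 0.74 without the repeat models, from −1.21 to −0.53 without muscle-enriched genes and from −0.49 to 0.12 without both. By U share of all genes they ran from 0.20 to 0.76, from −1.15 to −0.61 and from −0.46 to 0.10. Among genes enriched in neither, all medians by length and U share were below 0 without muscle-enriched genes. The lowest quintile by U share turned to 0.12 with all reads and 0.36 without the repeat models. Without both, the next quintile by U share turned to −0.07 and the shortest by length to −0.10. 4tU enters RNA at U positions, and the part of U content or length in the differences of single genes was not tested.

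**Figure D5:**
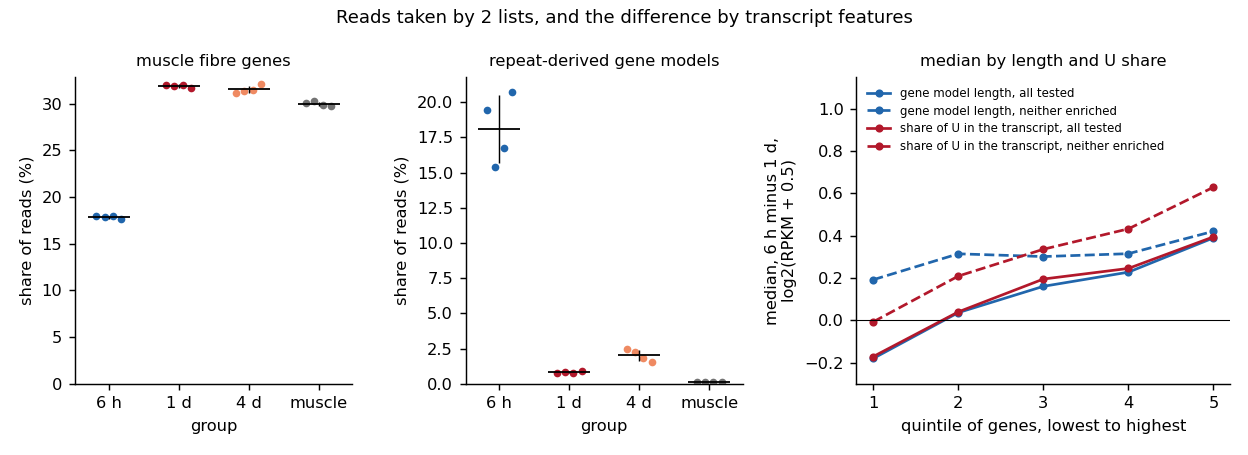
The left and middle panels show the percentage of reads per library (points; bars are mean and SD, n = 4) taken by 36 fibre genes and by 14 repeat-derived models in the 6 h, 1 d and 4 d label and in whole muscle. The right panel shows the median difference between the 6 h and 1 d label in quintiles of genes ordered by gene model length (blue) or by share of U (red), for all tested genes (solid) and for those enriched in neither muscle nor stem cells (dashed). The fibre share is lowest and the repeat share highest at 6 h, and the medians by U share run from −0.17 to 0.39.

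Models of repeated sequence had the highest median of the lists, 4.38. Of 14 models 13 were higher, with differences of 3.26 to 4.44, and Mir6236 alone was lower, by 2.28. Gm10800, on chromosome 2, stood at 306472, 237315, 260859 and 345385 RPKM in the 6 h label and at 13012, 13559, 11998 and 14595 in the 1 d label, 21.5-fold higher (4.42 ± 0.11, adjusted p = 2.40e-12). It stood at 33916 ± 6192 RPKM in the 4 d label and at 2562 ± 115 in whole muscle. The other models of the list lie close together on chromosome 9, between 3000282 and 3038316, apart from Gm10801 on chromosome 2, Gm21738 on chromosome 14 and Mir6236 elsewhere on chromosome 9. Such models can share reads of near-identical copies, so their values are not independent of each other and which copies the reads came from is uncertain. Whether these reads came from transcripts was not tested.

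The 4 d label stood above the 1 d label in some of the genes described and below it in others. Pdk4 stood lower at 4 d and Hba-a1, Camp and Gm10800 stood higher, at the levels given above. Trim63 stood at 507 ± 46.6 RPKM at 1 d and 177 ± 18.6 at 4 d, below 295 ± 11.9 in whole muscle, and Klf15 at 55.7 ± 2.22 and 37.1 ± 3.08. Slc25a25 stood higher at 4 d (21.7 ± 0.605 RPKM) than at 1 d (6.91 ± 0.577), as did Txnip (215 ± 11.6 against 141 ± 2.89). Differences from the 4 d label were not tested here.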

How the data were processed

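The authors deposited RPKM of 16979 genes in 1 table of 32 libraries, of which 8 entered the tests. The submitters' processing notes name mm10 and the tools Trim Galore, STAR, Subread with its featureCounts, and edgeR, without versions. Per the labels' protocols, 500 pg of RNA was reverse transcribed from oligo(dT) primers, amplified for 13 to 15 cycles and read as 101 bp pairs. No source used here says whether counting used strand, so a gene and its antisense partner may share reads. The table's header is 1 cell left of its values, and columns were taken by position. Multiplied by gene length and a library factor, 100% of values lay within 0.1 of a whole read, which gave the recovered reads behind depths and shares.

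Tests ran in limma 3.58.1 with the trend option on log2(RPKM + 0.5) of the 8 libraries. A gene was tested if at least 3 of them reached 1 RPKM, and called if its Benjamini-Hochberg adjusted p was under 0.05. A low gene could therefore enter the test through only the group where it was high. Data were also simulated with 200 changed genes, a fixed spread and known library sizes. There 96% of 1.5-fold and 100% of 2-fold changes were recovered, with 9 false calls in 10955 genes tested. The simulation held no shift of large blocks of reads, so it cannot show how the scaling affects the calls. Other steps used Python 3.11.15 with pandas 2.3.3, numpy 2.4.6 and matplotlib 3.10.9. Of 1488 genes without a symbol in the file, 1350 were named by gene ID from GENCODE M21.

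The comparison, the 38 gene lists and the naming rule were chosen with earlier results of these data known. The rule named the 10 largest rises and 10 largest falls among called genes at 5 RPKM or more whose libraries did not overlap, leaving out models known by number. It added up to 4 genes per list, those of smallest adjusted p, and 9 genes always, and allowed some to be left out. A few of the named genes are not reported here. Genes said to be singled out, those with promoter matches and the other repeat models were picked with their values in view. Alternatives were other pseudocounts, filters and scalings, limma-voom, a fit of all groups, a replicate block and leaving out each library.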

Additional observations from a re-analysis of the deposited data

Results flagged for a closer look

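In 264 groups of 4 values, 20 held a library that stood apart by more than Dixon's 95% limit, where chance flags about 1 in 20 groups. In the 6 h label, replicate 1 stood apart in 8 of the groups of values. It was high for the mitochondrial tRNA models mt-Tt (11.9 RPKM, the others 4.31 to 5.43), mt-Th (37 RPKM, the others 9.39 to 12.5), mt-Tv (34.8 RPKM, the others 13.4 to 14.3) and mt-Tl2 (34.3 RPKM, the others 9.32 to 12.4), and for ND4L (13.1 RPKM, the others 5.24 to 6.13). It was low for Foxo1 (53.9 RPKM, the others 65.6 to 67.3), Nfkbia (157 RPKM, the other 3 at 166) and Cd248, a stromal marker (4.21 RPKM, the others 4.83 to 4.9).

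Replicate 2 of the 6 h label was low for Hexim1 (9.86 RPKM, the others 10.9 to 11) and high for Arntl (15.8 RPKM, the others 13.8 to 14). Replicate 3 was high for Snhg12, a snoRNA host (4.41 RPKM, the others 4 to 4.06). Replicate 4 was high for Me1 (31.7 RPKM, the others 28.7 to 29.1) and in recovered reads (87375972, the others 30933516 to 36263387).

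In the 1 d label, replicate 1 was high for Dusp1 (47.3 RPKM, the others 39.3 to 40.2) and Polr2d (28.6 RPKM, the others 25 to 25.1) and low for Uty, a Y-linked gene (1.66 RPKM, the others 2.15 to 2.23). Replicate 2 was low for Mafa (20.4 RPKM, the others 23.4 to 23.8). Replicate 3 was high for Hbb-b1, a β-globin (504 RPKM, the others 477 to 478). Replicate 4 was low for Ndufs1 (151 RPKM, the others 159 to 161) and high for ND4L (42.1 RPKM, the others 29.3 to 30). Each of these genes stayed on the same side of the threshold and in the same direction when any 1 library was left out.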

How the results depend on the processing

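Of the 5913 genes higher and 4275 lower, the lower count was 6740 without the filter and 2749 with all groups in 1 fit, and 2301 with library sizes without repeat-derived models. Scaling without muscle-enriched genes left 1207 higher and 9387 lower. The median of all genes, 0.13, was −0.016 without the filter, 0.10 with the median of ratios, 0.25 with all reads, 0.50 without repeat-derived models, −0.85 without muscle-enriched genes, −0.16 without both (a scaling chosen after seeing the data) and 0.15 with limma-voom. Leaving out 1 library gave 5680 to 5950 higher, 4164 to 4230 lower and medians of 0.12 to 0.14. The sign of 19 of 38 list medians turned without muscle-enriched genes, 8 without repeat-derived models and 6 each with all reads and without both. Of 128 single genes, these turned without muscle-enriched genes: Rbpj (−0.049), Hey1 (−0.088), Polr2d (−0.22), Fabp4 (−0.024), Rgs5 (−0.53, from 0.55), ND1 (−0.47), Fos (−0.11), Hspa1a (−0.78) and Fbxo32 (−0.76). Egr1 turned to 0.067 with all reads and 0.32 without repeat-derived models, and Hspa1a to −0.11 without both. Calls were lost for Hspa1a without 6 h label replicate 3, for Hspa1a, Acta1 and Fbxo32 with all groups in 1 fit, for Rsad2, Utp15, Id1, Dnajb1 and Dok7 without muscle-enriched genes, for Arntl without repeat-derived models and for Fbxo32 without both. The cause was not tested, but a scaling moves all genes of a library together. With the replicate number as a block, 5907 were higher and 4295 lower, and no named gene changed its call. Deviations of same-numbered libraries correlated at 0.137, 0.138, 0.0428 and 0.0447, and 1 of 4 6 h libraries correlated best with its own number, so the numbers were not taken as pairs. Read depth was 30933516 or more per library, and genes that reached 1 RPKM in fewer than 3 of the 8 libraries were left out of the main test.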
